A study of Mus musculus with 16 samples.

Results

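Bone marrow-derived macrophages, phagocytes grown from mouse marrow with macrophage colony-stimulating factor, were treated with lipopolysaccharide (LPS) in medium that contained serine, and their RNA was compared with that of untreated cells in the same medium. The 4 LPS libraries were set against the 4 untreated libraries, paired by the replicate number in their names, and together they make 8 of the 16 libraries of the series. The other 8 libraries came from cells in medium without serine and enter only where they are named. Cells of both groups came from C57BL/6J mice, were grown with the growth factor at 20 ng/mL, harvested on day 6 and replated in complete minimal essential medium. LPS was given at 100 ng/mL and RNA was isolated 4 h later. The labels give no age of the mice and do not say whether a replicate is an animal or a culture, so p-values cover only the spread seen among the libraries. Of the 43430 genes in the count table, 10593 had enough reads to be tested.

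LPS coats the surface of Gram-negative bacteria. CD14 hands it to the receptor TLR4 and its partner MD-2 (encoded by Ly96), and the receptor then signals along a MyD88 arm, which activates NF-kB and MAP kinases within minutes, and a TRIF arm, which activates IRF3 and induces interferon-β. Secreted interferon acts back on the macrophages through its receptor, so that a sample taken hours after LPS holds the products of early inflammatory genes beside those of later interferon-stimulated genes.

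Library totals were 6240112 to 8092528 counts with LPS and 5760734 to 7845261 counts untreated. Levels are CPM, the counts of a library scaled to a common total with TMM, given for replicates 1 to 4 in that order, or as mean ± SD with n = 4. Changes are log2 fold changes of LPS over untreated ± SE, where SE is the size of the change over the square root of the test's F statistic. Such an SE is approximate and can be too small for genes near 0 reads in a group. Adamts4, with 1 read untreated, was at 9.54 ± 0.29, or 10.91 ± 0.39 without replicate 1. A gene is called higher or lower when edgeR's quasi-likelihood test with a term for the replicate number gave a Benjamini-Hochberg adjusted p under 0.05, and every gene named as higher or lower passed it. The 14 macrophage markers, among them Csf1r, Adgre1 and Lyz2, were all detected and summed to 32141 to 39338 CPM with LPS and 27214 to 32972 CPM untreated (exact permutation test of the 8 libraries, two-sided adjusted p = 0.139). Scaled to total counts the order of the groups turned, with a macrophage sum of 28429 ± 1997 CPM with LPS and 36717 ± 2712 CPM untreated. T and NK cell markers summed to at most 13.5 CPM in any library, with Cd3e, Cd3d and Cd3g at 0, and erythroid markers to at most 0.416 CPM. Neutrophil markers summed to 87.1 to 201 CPM with LPS and 57.3 to 204 CPM untreated, with replicate 1 the highest in both groups. Endothelial markers summed to 59.2 to 83.1 CPM with LPS and 80.8 to 100 CPM untreated. Dendritic cell markers summed to 20.96 to 26.4 CPM with LPS and 4.25 to 7.20 CPM untreated, with Cd209a at 0, and like the stromal (22.8 to 45.2 CPM with LPS, 1.56 to 18.9 CPM untreated) and megakaryocyte sums (128 to 161 CPM with LPS, 87.6 to 99.5 CPM untreated) did not overlap between the groups (two-sided exact permutation p = 0.0286 for each, the smallest that 4 against 4 libraries allow, adjusted p = 0.0743). Only 2 of 10 dendritic cell, 3 of 9 stromal and 1 of 6 megakaryocyte markers had enough reads to be tested. Scaled to total counts the megakaryocyte sums were closer than their spread, at 120.6 ± 9.95 CPM with LPS and 116.9 ± 7.14 CPM untreated. Library measures also separated the groups, each at the same p and adjusted p, as 14113 to 14702 genes had a count with LPS and 14765 to 15430 untreated, and mitochondrial transcripts held 0.492% to 0.596% of counts with LPS and 0.601% to 0.836% untreated. The part of these sums and measures in the results was not tested. Replicate 1 had 1214 Y-linked counts with LPS and 1724 untreated and no Xist count, and the other replicates had at most 16 Y-linked counts and at least 669 Xist counts, so sex and replicate 1 cannot be told apart. Over all 13 measures tested, 0.0743 was the lowest adjusted p. In such bulk samples, fewer cells of a type and less RNA per cell cannot be told apart.

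LPS changed most of the genes that the macrophages express. Of the genes tested, 3777 were higher with LPS, 35.7% of them, and 3871 were lower, 36.5%. Those shares are the background for the counts of every gene group below. A test against a change of at most 2-fold (edgeR's glmTreat, adjusted p under 0.05) called 1408 genes higher, 13.3%, and 1006 lower, 9.5%. The increases reached further than the decreases. Among genes beyond 2-fold higher, 290 were estimated at 16-fold or more and 43 at 256-fold or more, while among those beyond 2-fold lower 51 reached 16-fold and 1 reached 256-fold. Of the 1408 genes, 148 were under 1 CPM in all 4 untreated libraries. Of the 1006 genes, 112 were under 1 CPM in all 4 LPS libraries. Such genes had enough reads to be tested only through the group where they were higher, so their direction was largely fixed in advance. All 4 LPS libraries lay above all 4 untreated libraries in 3280 genes, 31% of those tested, and below them in 3346, 31.6%. Log2 fold changes of the 4 pairs correlated across genes at 0.937 to 0.960, where genes are not independent replicates.

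**Figure D1:**
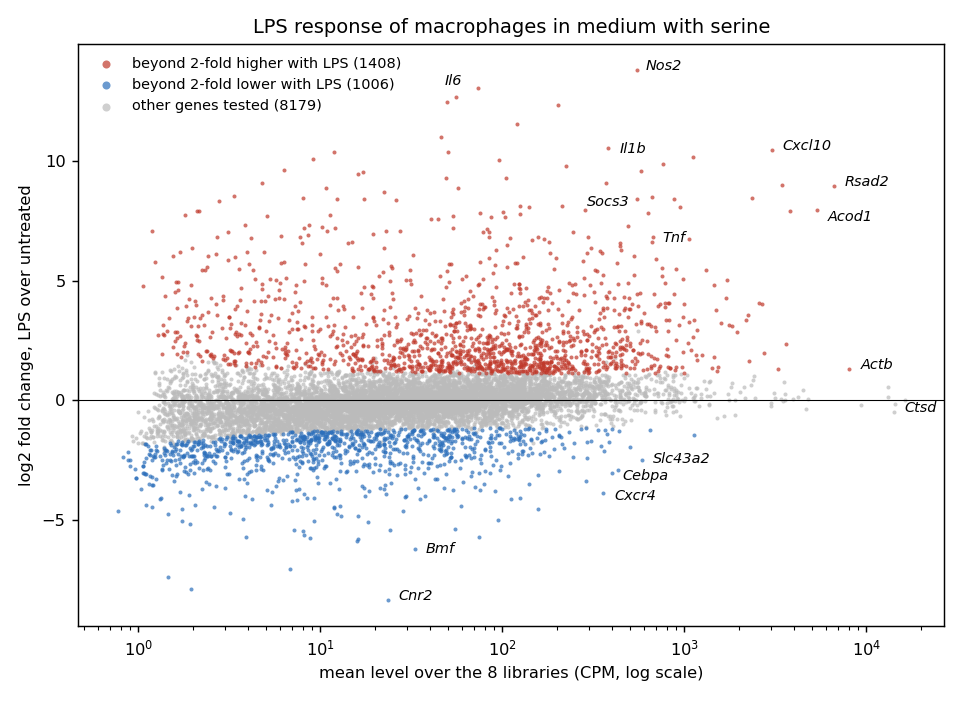
Each point is 1 of the 10593 genes tested, by its mean level over the 8 libraries (CPM, log scale) and its log2 fold change of LPS over untreated. The 1408 genes beyond 2-fold higher (red) reach further from 0 than the 1006 beyond 2-fold lower (blue), and the outermost genes of each side, Nos2 and Cnr2, rest on 2 and 3 reads in one of the groups.

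The genes that rose took up a large part of the RNA. Genes beyond 2-fold higher held 39.5%, 37.4%, 39.9% and 39.3% of all counts in LPS libraries 1 to 4, against 11.3%, 9.95%, 9.72% and 9.86% in untreated libraries. Genes beyond 2-fold lower held 1.21% to 1.402% with LPS, against 6.84% to 7.15% untreated. TMM factors were 0.784 to 0.849 with LPS and 1.22 to 1.25 untreated. Scaling to total counts without these factors gave a median shift of -0.61 (log2) over all genes and gave 1915 genes higher and 7267 lower, so that 20.9% of calls were higher against 49.4% by TMM. All 1408 genes beyond 2-fold higher were also called higher by total counts, and all 3871 lower genes were also called lower. The shift largely fixed this agreement, as it moves lower genes further down and the smallest log2 fold change of the 1408 genes was 1.13. Of the smaller increases, 812 turned into decreases, and counts by total-count scaling are given beside the gene groups whose counts it moves by over 1.5 times.

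Receptors for microbial products were mostly higher with LPS, but not Tlr4. Of 15 genes tested in the group of the LPS receptor complex and Toll-like receptors, 13 were higher and 1 was lower, and their median log2 fold change was 1.14, against -0.03 over all genes tested. By total counts 8 were higher and 3 lower, with a median of 0.53. Tlr4 itself, the signalling receptor for LPS, had 68.2, 81.9, 89.2 and 75.1 CPM with LPS, against 73.7, 66.8, 76.7 and 76.3 CPM untreated. The groups overlapped and its log2 fold change of 0.10 ± 0.08 (adjusted p by edgeR = 0.312) did not pass the test, while by total counts it passed as lower, at -0.51. Cd14, the co-receptor that delivers LPS, had 3507, 2783, 3144 and 3216 CPM with LPS, against 486, 321, 296 and 343 CPM untreated. All LPS libraries exceeded all untreated ones, with a log2 fold change of 3.15 ± 0.09 (adjusted p by edgeR = 1.09e-10). Ly96, encoding MD-2, was higher by 1.14 ± 0.12. The largest increase was that of Tlr3, a sensor of double-stranded RNA in endosomes, at 4.21 ± 0.31, followed by Tlr1 at 3.77 ± 0.08, whose product pairs with TLR2 on bacterial lipopeptides. The member that fell was Tlr13, which senses bacterial ribosomal RNA in mice. Its levels were 104, 154, 144 and 139 CPM with LPS, against 447, 451, 468 and 424 CPM untreated, a log2 fold change of -1.74 ± 0.09 (adjusted p by edgeR = 1.24e-08) with no overlap of the groups.

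Downstream of the receptors, 20 of 28 adaptors, kinases and ubiquitin enzymes were higher and 3 were lower, and 14 were beyond 2-fold higher. By total counts 15 were higher and 8 lower, and the median log2 fold change was 0.49 instead of 1.09. Traf1, an adaptor of TNF receptor signalling, averaged 548 ± 115 CPM with LPS and 16.02 ± 5.14 CPM untreated, a log2 fold change of 5.11 ± 0.11. Ripk2, the kinase that relays NOD1 and NOD2 signals, was higher by 4.00 ± 0.08, and Peli1, a ubiquitin ligase of the TLR pathway, by 3.61 ± 0.09. The 3 that fell were Irak1 at -0.38 ± 0.07, Irak4 at -0.89 ± 0.10 and Tab1 at -1.34 ± 0.15, which encode kinases of the MyD88 complex and a partner of the kinase TAK1. Of 24 MAP kinases and their phosphatases, 13 were higher and 5 lower, but 8 and 11 by total counts. Among them Dusp2, a nuclear phosphatase that switches off MAP kinases, averaged 60.8 ± 15.2 CPM with LPS and 1.33 ± 0.442 CPM untreated, a log2 fold change of 5.46 ± 0.16, and Dusp16 was higher by 3.897 ± 0.10. Map3k14, which encodes the kinase NIK of the alternative NF-kB pathway, fell to 6.00, 6.82, 7.36 and 7.53 CPM with LPS, against 42.0, 26.0, 26.8 and 30.9 CPM untreated, a log2 fold change of -2.18 ± 0.15 (adjusted p by edgeR = 1.27e-07).

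All 11 NF-kB subunits and inhibitors were higher, 10 of them beyond 2-fold, with a median log2 fold change of 2.86. Nfkbiz, encoding the nuclear cofactor IκBζ that several secondary genes such as Il6 need, had 908, 528, 636 and 638 CPM with LPS, against 11.5, 7.90, 6.67 and 9.64 CPM untreated. The LPS libraries stood far above the untreated ones, and replicate 1 was the highest in both groups; the log2 fold change was 6.24 ± 0.10 (adjusted p by edgeR = 5.06e-13). Nfkbie, an inhibitor that holds NF-kB in the cytoplasm, was higher by 4.06 ± 0.08, and Nfkb1, encoding the p50 subunit and its precursor, by 3.36 ± 0.07.

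**Figure D2:**
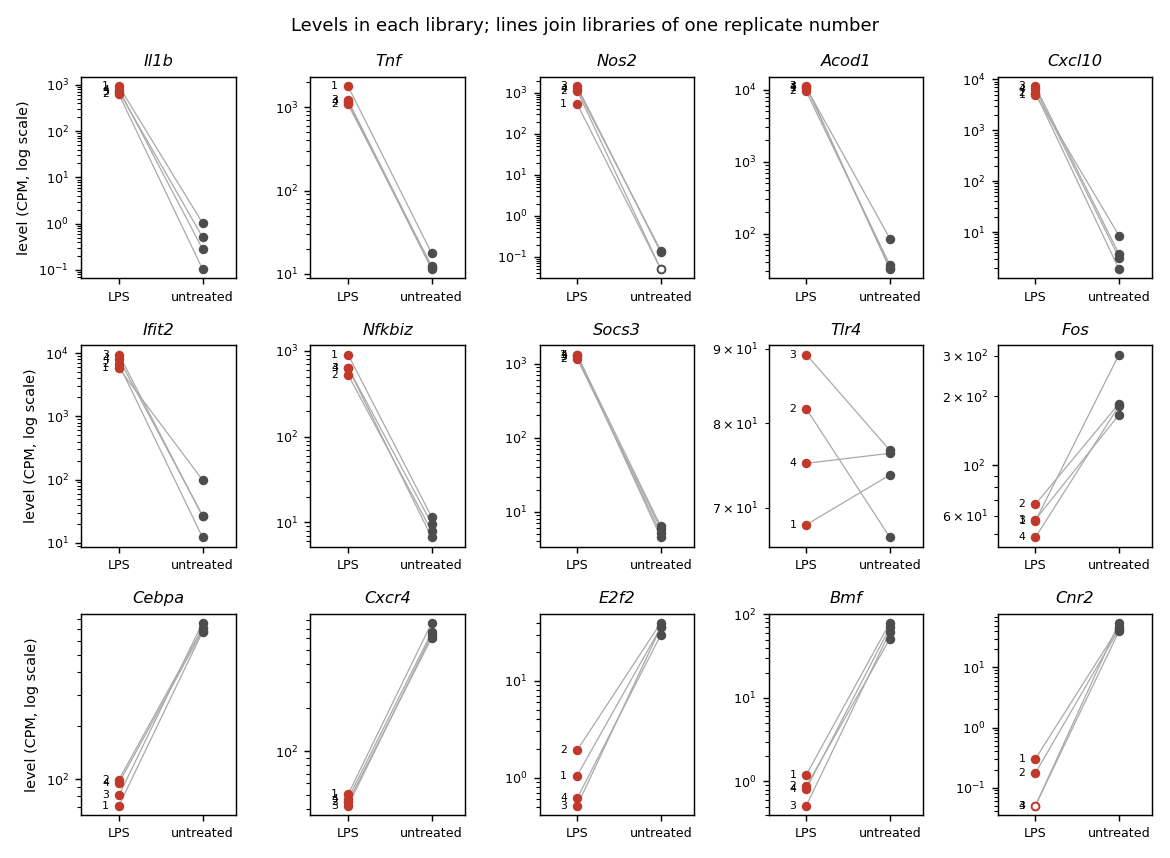
Levels (CPM, log scale) of 15 genes in each library, LPS in red at the left and untreated in grey at the right, with lines that join libraries of the same replicate number; open circles are libraries with no read, drawn at the foot of the axis. In 14 of the genes the groups do not overlap, and in Tlr4 they do.

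Transcription factors changed in both directions. Of 17 AP-1, EGR and other immediate early factors, 11 were higher and 2 were lower, or 9 and 4 by total counts, and the 2 lower ones were Fos and Jun, the founding members of AP-1. Fos had 56.9, 67.3, 57.7 and 48.2 CPM with LPS, against 304, 186, 166 and 182 CPM untreated. All LPS libraries were below all untreated ones, and the log2 fold change was -1.83 ± 0.18 (adjusted p by edgeR = 2.52e-04). Jun was lower at -1.21 ± 0.16 in the same direction in every pair. Batf2 and Batf, basic leucine zipper factors that pair with JUN proteins, rose by 5.04 ± 0.31 and 5.02 ± 0.14, and averaged 60.4 and 57.0 CPM with LPS and 1.82 and 1.76 CPM untreated. Of 13 interferon regulatory factors and STATs, 10 were higher and 1, Stat6 at -0.22, was lower, or 10 and 3 by total counts. Stat2 rose by 4.28 ± 0.22 and Irf1 by 4.11 ± 0.09. Irf3, the factor that the TRIF arm activates by phosphorylation, did not pass the test, with 22.8 with LPS and 25.0 untreated (mean CPM), but passed as lower by total counts.

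Factors that set the macrophage lineage moved both ways, 12 of 26 higher and 10 lower, or 9 and 14 by total counts, beside 35.7% higher and 36.5% lower over all genes. Cebpa, which drives myeloid differentiation, had 71.0, 99.5, 81.1 and 95.2 CPM with LPS, against 678, 709.9, 761 and 688 CPM untreated. The groups did not overlap and the log2 fold change was -3.04 ± 0.09 (adjusted p by edgeR = 5.75e-11). Its relatives differed, with Cebpd higher by 4.46 ± 0.16, Cebpb higher by 2.31 ± 0.11 and Cebpg lower at -0.53 ± 0.08. Mef2d, a MADS-box factor, was lower at -1.73 ± 0.08. Tfec, a factor of the MITF family in macrophages, was higher by 3.50 ± 0.12. Nuclear receptors were lower more often than higher, 10 of 19 against 6, with a median log2 fold change of -0.66. Over all genes tested 36.5% were lower and 35.7% higher. By total counts these numbers were 12 and 2, and the median was -1.26. Rxra, the shared partner of many nuclear receptors, had 16.2, 16.1, 20.9 and 21.4 CPM with LPS, against 148, 124, 173 and 165 CPM untreated, a log2 fold change of -3.04 ± 0.08 (adjusted p by edgeR = 1.31e-11). Nr4a1, an immediate early orphan receptor, was lower at -3.22 ± 0.22 while its paralog Nr4a3 was higher by 3.37 ± 0.24. Ppard was lower at -2.55 ± 0.18, and Nr3c1, encoding the glucocorticoid receptor, was higher by 1.90 ± 0.06.

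Most genes that limit the response were higher. Of 27 feedback inhibitors and mRNA decay factors 18 were higher and 7 lower, beside 35.7% and 36.5% of all genes tested. Socs3, an inhibitor of signalling by the IL-6 receptor family, had 1297, 1163, 1223 and 1329 CPM with LPS, against 6.38, 5.92, 5.13 and 4.54 CPM untreated. These libraries differed little within each group, and the log2 fold change was 7.82 ± 0.11 (adjusted p by edgeR = 2.38e-13). Socs1, the inhibitor of interferon receptor signalling, rose by 7.56 ± 0.28, or 8.29 ± 0.29 without replicate 3, and Usp18, which removes ISG15 from proteins and dampens interferon signalling, by 6.27 ± 0.50. Il1rn, the natural antagonist of the IL-1 receptor, averaged 1381 ± 157 CPM with LPS and 23.2 ± 1.88 CPM untreated. Zfp36, which encodes tristetraprolin, was higher by 2.03 ± 0.10. The decreases included both relatives of tristetraprolin on the list, which bind AU-rich mRNA. Zfp36l1 had 2.85, 2.45, 2.23 and 2.65 CPM with LPS, against 36.5, 20.2, 34.5 and 37.9 CPM untreated, a log2 fold change of -3.64 ± 0.16 (adjusted p by edgeR = 9.42e-10), and Zfp36l2 was lower at -2.42 ± 0.21. Pdcd4, a translation inhibitor that miR-21 is known to target, was lower at -3.43 ± 0.20.

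Most interleukins and TNF family cytokines with enough reads to be tested were higher with LPS. Of the 19 tested, out of 32 listed, 15 were higher, all beyond 2-fold, and 2 were lower, beside 35.7% and 36.5% over all genes. Il6 and Il12b, with no read untreated, entered the test through LPS reads alone and could only be higher. Il1b, Il1a and Il27, with untreated means under 1 CPM, also entered it through LPS reads, which largely set their direction in advance. The count of 15 higher members therefore partly reflects the need for enough reads. Il1b (chromosome 2, 129364570 to 129371139, minus strand in mm10) had 929.5, 622, 717 and 784 CPM with LPS, against 1.03, 0.104, 0.513 and 0.284 CPM untreated. The lowest LPS library was far above the highest untreated one, and the log2 fold change was 10.55 ± 0.19 (adjusted p by edgeR = 3.62e-11). Il1a had 627, 349, 433 and 376 CPM with LPS, against 0.720, 0.519, 0.385 and 0.284 CPM untreated, a log2 fold change of 9.78 ± 0.12. Tnf had 1789, 1084, 1207 and 1149 CPM with LPS, against 17.6, 12.3, 12.05 and 11.3 CPM untreated, a log2 fold change of 6.61 ± 0.08 (adjusted p by edgeR = 1.44e-13), with replicate 1 the highest in both groups. Il6 had 116, 172, 169 and 128 CPM with LPS and no read in any untreated library, which makes it at least 1661-fold higher if the untreated libraries together are set to 3 counts. For Il12b, which encodes a chain shared by interleukin-12 and interleukin-23, that lower bound was 1308-fold, with 174, 93.1, 106 and 70.4 CPM with LPS. Il27 rose by 8.85 ± 0.21, or 9.45 ± 0.23 without replicate 2, and averaged 114 ± 28.9 CPM with LPS and 0.216 ± 0.183 CPM untreated. The decreases were those of Il16 at -2.30 ± 0.25, a chemoattractant for CD4+ cells, and Tnfsf12 at -1.71 ± 0.11, which encodes TWEAK.

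Chemokines with enough reads to be tested were mostly higher, 10 of 11 CC chemokines and 9 of 10 CXC and CX3C chemokines, with 0 and 1 lower. Each group had 14 listed, and over all genes tested 35.7% were higher and 36.5% lower. Cxcl11 and Ccl12, with no read untreated, entered the test through LPS reads alone and could only be higher. Members with few reads untreated also depended on LPS reads to enter it, so these counts partly reflect the need for enough reads. By total counts 9 CC chemokines were higher and 2 lower. Cxcl10, which recruits T cells through CXCR3, had 4964, 5495, 7282 and 6406 CPM with LPS, against 8.53, 1.87, 3.72 and 3.12 CPM untreated. Its untreated level was highest in replicate 1, and the log2 fold change was 10.46 ± 0.57 (adjusted p by edgeR = 4.57e-04), or 11.09 ± 0.09 without replicate 1. Ccl4, a chemoattractant for leukocytes, averaged 1147 ± 209.6 CPM with LPS and 1.51 ± 0.440 CPM untreated, a log2 fold change of 9.59 ± 0.13, and Ccl3, its close relative, was higher by 8.39 ± 0.19. The neutrophil attractants Cxcl3 and Cxcl1 were higher by 10.04 ± 0.15 and 9.30 ± 0.26, and Cxcl1 by 8.45 ± 0.24 without replicate 1 and 10.37 ± 0.23 without replicate 4. Cxcl11 averaged 99.9 ± 27.6 CPM with LPS and had no read untreated, with a lower bound of at least 1151-fold. That of Ccl12 was at least 269-fold, and with Ccl12 set to it the median log2 fold change of the CC group was 8.07 instead of 8.09. The chemokine that fell was Cxcl14, at 5.56 ± 2.17 CPM with LPS and 15.6 ± 5.12 CPM untreated, a log2 fold change of -1.47 ± 0.18 (adjusted p by edgeR = 1.49e-05).

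Secreted growth factors, proteases and complement were more mixed. Of 20 growth factors 10 were higher and 5 lower, or 7 and 11 by total counts. Edn1, encoding the vasoconstrictor endothelin-1, had 27.2, 34.6, 38.5 and 28.9 CPM with LPS and a single read untreated, a 1103-fold ratio (95% counting interval 197 to 43623). Csf1, the growth factor of macrophages themselves, averaged 239 ± 28.0 CPM with LPS and 8.27 ± 2.62 CPM untreated and was higher by 4.85 ± 0.13. Hgf, encoding hepatocyte growth factor, fell to 14.7, 14.9, 21.4 and 15.3 CPM with LPS, against 95.3, 81.3, 87.6 and 81.7 CPM untreated, a log2 fold change of -2.39 ± 0.11 (adjusted p by edgeR = 1.52e-09). Of 29 proteases and inhibitors 18 were higher and 5 lower, 12 of them beyond 2-fold higher and 0 beyond 2-fold lower, compared with 13.3% and 9.5% of all genes, and by total counts 14 were higher and 11 lower. Plat, encoding tissue plasminogen activator, had 33.0, 13.5, 15.6 and 11.2 CPM with LPS and no read untreated, at least 218-fold higher. Adamts4, an enzyme that cleaves aggrecan, had a 1175-fold ratio (counting interval 210.4 to 46485). Adam10, a sheddase, was the lowest at -0.82 ± 0.06. In the complement group C3, the central component, rose by 3.37 ± 0.37, and C5ar2, the second receptor for C5a, fell by 2.66 ± 0.19 to 2.85, 1.05, 2.23 and 1.83 CPM with LPS, against 14.8, 10.6, 13.7 and 11.6 CPM untreated. Of its 17 tested members 10 were higher and 2 lower, but 2 and 11 by total counts and 6 and 2 without the replicate term.

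At the cell surface, costimulatory ligands had the highest median of the surface groups, a log2 fold change of 2.57. Of 22 tested 19 were higher, 17 of them beyond 2-fold. Cd40, the receptor through which T cells license macrophages, had 1385, 1096, 1501 and 1333 CPM with LPS, against 5.14, 2.49, 2.95 and 3.97 CPM untreated. No library overlapped between the groups, and the log2 fold change was 8.51 ± 0.14 (adjusted p by edgeR = 6.75e-12). Cd69, an activation marker, rose by 9.06 ± 0.27. Havcr2, Vsir and Cd276, which encode the checkpoint proteins TIM-3, VISTA and B7-H3, were the 3 that fell, by 1.67 ± 0.12, 1.28 ± 0.06 and 1.07 ± 0.16 (log2). Of 23 MHC class I and antigen processing genes 21 were higher and 1 was lower, or 19 and 3 by total counts. Nlrc5, the activator of class I transcription, averaged 282 ± 32.4 CPM with LPS and 18.8 ± 7.33 CPM untreated, and Tap1, a subunit of the peptide transporter, was higher by 3.87 ± 0.16. The change in class II was smaller, with 7 of 12 higher and 3 lower, or 4 and 7 by total counts, and 2 and 3 without the replicate term, led by its activator Ciita at 2.09 ± 0.20.

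Receptors of chemokines, metabolites and purines held both the strongest decrease of all genes and some of the strongest increases. Of 37 tested 20 were higher and 13 lower, or 17 and 18 by total counts. Cnr2, encoding the cannabinoid receptor CB2 (chromosome 4, 135895394 to 135920207, plus strand), had 0.300, 0.175, 0 and 0 CPM with LPS, against 47.4, 43.7, 55.6 and 40.4 CPM untreated. With 3 reads over the LPS group it was 361-fold lower, with a counting interval of 123 to 1752. Gpr183, the receptor for 7α,25-dihydroxycholesterol, had 0.450, 1.92, 0.856 and 0.204 CPM with LPS, against 33.3, 22.1, 22.3 and 22.97 CPM untreated, a log2 fold change of -4.85 ± 0.31 (adjusted p by edgeR = 6.49e-07), or -5.64 ± 0.28 without replicate 2. Ch25h, the enzyme that makes the 25-hydroxycholesterol from which this ligand is formed, moved the other way. It had 355, 326, 469.7 and 466 CPM with LPS, against 0, 0.104, 0 and 0.142 CPM untreated, a 6846-fold ratio (counting interval 1895 to 56535). Cxcr4, the receptor for CXCL12, had 50.3, 44.4, 42.1 and 47.0 CPM with LPS, against 771, 608, 635 and 663 CPM untreated, a log2 fold change of -3.86 ± 0.07 (adjusted p by edgeR = 1.21e-12) with no overlap. Hcar2, the receptor for niacin and β-hydroxybutyrate, had a 1731-fold ratio (counting interval 479 to 14305). Adora2a, the adenosine receptor that restrains inflammation, had 283, 151, 197 and 173 CPM with LPS, against 1.03, 1.14, 0.513 and 0.567 CPM untreated, a log2 fold change of 7.88 ± 0.15. The formyl peptide receptor Fpr1 was higher by 7.01 ± 0.11.

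Cytokine receptors, integrins and pattern receptors changed by member. Of 40 cytokine and growth factor receptors 26 were higher and 10 lower, or 19 and 17 by total counts. Il15ra, which presents IL-15 to neighbouring cells, had 124, 82.2, 131 and 86.9 CPM with LPS, against 0.514, 0.416, 0.513 and 0.567 CPM untreated, a log2 fold change of 7.69 ± 0.14. Tnfrsf21 was lower at -3.07 ± 0.10, Il6ra at -2.09 ± 0.09 and Il7r at -1.66 ± 0.07. Among 28 integrins and adhesion molecules 17 were higher and 5 lower, or 11 and 14 by total counts. Itgb8, whose integrin activates latent TGF-β, had 161, 149, 137 and 156 CPM with LPS, against 0.411, 0.623, 0.385 and 1.28 CPM untreated, and Icam1, the ligand of leukocyte integrins, averaged 2816 ± 605 CPM with LPS and 100.0 ± 21.5 CPM untreated. Itga6 was lower at -2.33 ± 0.12. Clec4e, the receptor Mincle for mycobacterial cord factor, averaged 3333 ± 538 CPM with LPS and 103 ± 32.5 CPM untreated and led 16 higher and 2 lower members among 20 C-type lectin and Siglec receptors, or 10 and 7 by total counts. Of 23 Fc and scavenger receptors 11 were higher and 7 lower, or 8 and 13 by total counts. Olr1, a receptor for oxidised lipoprotein, was higher by 5.96 ± 0.11. Lrp1 and Mertk, which take up lipoproteins and apoptotic cells, were lower at -1.46 ± 0.07 and -1.63 ± 0.09.

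Interferon-stimulated genes rose without exception on the list. All 54 members tested of 56 listed were higher and all 54 were beyond 2-fold higher, as were all 14 guanylate-binding proteins and immunity-related GTPases tested of 19 listed. Their median log2 fold changes were 4.32 and 6.25. For comparison, 13.3% of all genes tested were beyond 2-fold higher. Rsad2, encoding the antiviral enzyme viperin, had 8403, 12550.5, 17852 and 14175 CPM with LPS, against 52.96, 12.99, 25.6 and 24.1 CPM untreated. Its log2 fold change was 8.94 ± 0.74 (adjusted p by edgeR = 0.00165), and it gained more CPM than any other gene tested. Cmpk2, a mitochondrial nucleotide kinase that lies beside Rsad2, had 3909, 6629, 9413 and 7532 CPM with LPS, against 28.0, 7.06, 11.5 and 9.50 CPM untreated, a log2 fold change of 8.99 ± 0.82, or 9.69 ± 0.08 without replicate 1. Gbp2b, a guanylate-binding protein, averaged 2240.1 ± 317 CPM with LPS and 1.88 ± 0.815 CPM untreated, a log2 fold change of 10.17 ± 0.20. The smallest change in the interferon group was that of Ifitm2, which blocks virus entry, at 1.17 ± 0.07.

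Untreated cells of replicate 1 already held more of these transcripts than the other untreated libraries. Summed over the 54 genes, the share of all counts was 5.19%, 5.90%, 7.05% and 6.33% with LPS and 0.612%, 0.303%, 0.334% and 0.342% untreated. The highest untreated library was replicate 1 for 52 of the 54 genes, against 3919 of all 10593. Ifit2, which inhibits translation of viral RNA, had 5773, 6670.1, 9548 and 8139 CPM with LPS, against 98.5, 12.2, 26.3 and 26.9 CPM untreated, and Ifit3 had 1190.4, 1108, 1596 and 1388 CPM with LPS, against 39.1, 3.32, 10.1 and 6.95 CPM untreated. Iigp1, an immunity-related GTPase, had 519.5, 422, 747 and 563 CPM with LPS, against 6.68, 0.416, 0.897 and 0.709 CPM untreated. In all 3 genes untreated replicate 1 was the highest of its group while LPS replicate 1 was not. The fold change within the pair was smallest in replicate 1 for 53 of the 54 genes, against 3619 of all genes, and the medians of the group were 3.27 in pair 1 and 4.73, 4.52 and 4.50 in pairs 2 to 4. Without replicate 1 the log2 fold change of Ifit2 was 8.55 ± 0.15 instead of 7.90 ± 0.89, that of Ifit3 7.65 ± 0.11 instead of 6.82 ± 0.83, and that of Iigp1 9.69 ± 0.12 instead of 7.97 ± 0.73. Outside the list, Il1b was at 11.13 ± 0.13 instead of 10.55 ± 0.19, Acod1 at 8.23 ± 0.07 instead of 7.93 ± 0.43 and Tnf at 6.55 ± 0.08 instead of 6.61 ± 0.08. Among untreated cells without serine replicate 1 was again the highest, with 0.578% of counts in the 54 genes, and 0.308%, 0.354% and 0.272% in replicates 2 to 4. Sex and replicate 1 cannot be told apart, and the part of either in this pattern was not tested.

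**Figure D3:**
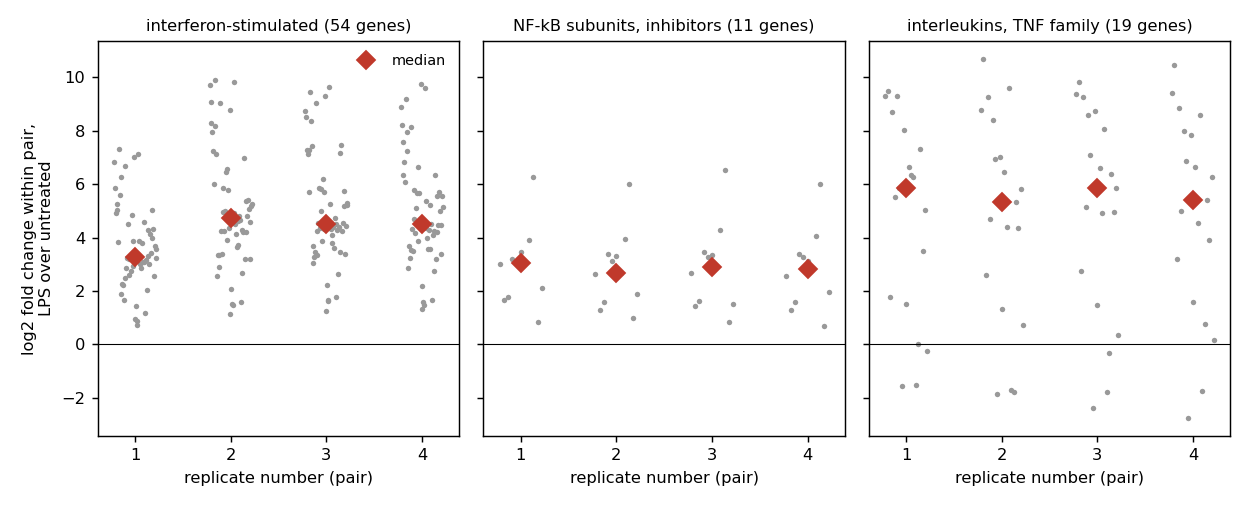
Each grey point is a gene's log2 fold change of LPS over untreated within 1 pair of libraries, by replicate number, for 3 gene groups; red diamonds are group medians. The median of the 54 interferon-stimulated genes is 3.27 in pair 1 and 4.50 to 4.73 in the others, while that of the 11 NF-kB genes is highest in pair 1, at 3.03.

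Beyond these lists, 79 genes had at least 2-fold more CPM in untreated replicate 1 than in any other untreated library, at 5 CPM or more, and 31 of them were in the interferon and GTPase groups. The same count was 8, 2 and 1 for untreated replicates 2 to 4, and 53, 9, 2 and 1 for LPS replicates 1 to 4. None of the 53 genes of LPS replicate 1 belonged to those groups. Among genes that LPS changed, with a mean of at least 10 CPM, the widest range over pairs was that of Tnc, the matrix protein tenascin-C. It had 35.0, 81.2, 76.9 and 53.7 CPM with LPS, against 5.55, 12.99, 13.7 and 0.567 CPM untreated, so that untreated replicate 4 stood below the rest, and its log2 fold change of 2.95 ± 0.50 (adjusted p by edgeR = 0.0103) did not pass the test without replicate 3. Tnfsf10, encoding the death ligand TRAIL, had 162, 216, 347 and 273 CPM with LPS, against 1.85, 0, 1.03 and 0.425 CPM untreated and was also among the 5 widest, with Ifit1bl1, Ifit3 and Slfn4.

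Genes that rose often lay side by side. Runs of at least 3 neighbouring tested genes that were all beyond 2-fold higher numbered 92 and held 357 genes, and runs of genes beyond 2-fold lower numbered 32 with 105 genes. The longest covered 15 genes of the Ifi200 cluster on chromosome 1 (173350879 to 174031810 in mm10), whose proteins sense DNA, from Aim2 at 3.13 to Ifi205 at 8.401. The next was a cluster of 10 genes on chromosome 11 (48861968 to 49135387) with the GTPases Irgm1 at 4.43 and Tgtp2 at 7.67. Without replicate 1 Ifi205 stood at 9.42 ± 0.11 and Tgtp2 at 8.95 ± 0.14. A run of 8 genes on chromosome 18 held Iigp1, and 7 genes on chromosome 14 (59244441 to 59548903) joined the Phf11 family to Setdb2, a histone methyltransferase gene that rose by 4.72 ± 0.10. Many of these are close copies of each other, so reads may be split between them and single values are uncertain. The longest run of decreases held 5 genes on chromosome 11 (103116231 to 103412687), Hexim1 at -1.37, Fmnl1 at -1.67, Map3k14 at -2.18, Arhgap27 at -3.30 and Plekhm1 at -2.41. Another run on chromosome 10 held the neighbours Sesn1 and Foxo3, both stress-response genes, at -5.38 and -2.53.

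Promoters of the induced genes held more letter matches to the binding sequences of NF-kB and of the interferon pathway. RefSeq promoters (GRCm38.p6) whose start lay within 1000 bases of the gene's start in the count table were found for 999 of the 1408 genes beyond 2-fold higher and 736 of the 1006 beyond 2-fold lower. The 250 bases before the start were searched on both strands. The interferon element (GAAA, any 2 bases, GAAA) was found in 18.8% of 186 promoters of genes at least 16-fold higher, in 7.31% of all those beyond 2-fold higher, in 1.77% of those beyond 2-fold lower and in 2.40% of the other tested genes. The kB motif (GGGA, any 2 bases, TTCC) was found in 5.38%, 2.30%, 0.951% and 1.16% of the same sets. An AP-1 motif, TGANTCA, matched 16.7%, 7.41%, 3.53% and 3.59%, and the TATA box TATAAA 18.8%, 9.11%, 5.03% and 5.14%. Over all 17017 promoters the shares were 2.99% for the interferon element, 1.15% for kB, 6.12% for AP-1 and 11.6% for TATA. A GC box, GGGCGG, was less frequent in the strongest group, at 39.2% against 62.5% in other tested genes, and the median GC content was 51.8% against 60.0%. A match is a description of letters and not evidence of binding, and adjoining interferon elements can overlap.

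**Figure D4:**
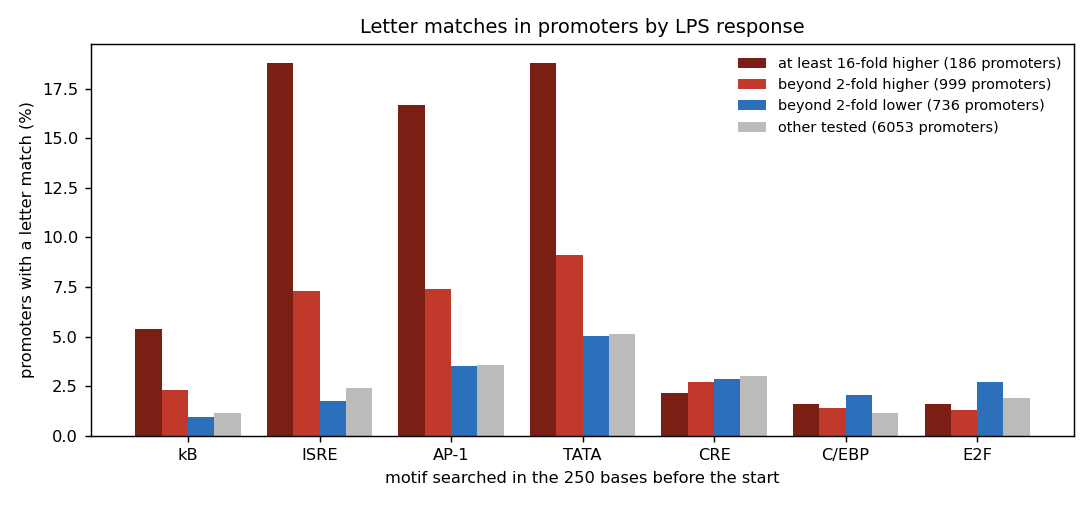
Share of promoters (%) with a letter match to each of 7 motifs in the 250 bases before the start, for 4 sets of genes by their LPS response; bars start at 0 and no test was made. The interferon element, AP-1 and TATA stand at 18.8%, 16.7% and 18.8% in genes at least 16-fold higher, against 2.40%, 3.59% and 5.14% in other tested genes.

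The next promoters show how these matches lie in the most strongly induced genes of each kind, read 5′ to 3′ on the gene's strand, with kB and interferon element matches in capitals. The first 2 are the genes with the largest change and a kB match only, Il6 (chr5:30012864-30013113, plus strand) and Cxcl3 (chr5:90785851-90786100, plus strand), where the capitals of Cxcl3 join overlapping matches on both strands. Then follow 2 interferon-stimulated genes with the interferon element only, Rsad2 (chr12:26456453-26456702, minus strand) and Ifit1 (chr19:34640639-34640888, plus strand), and last Cxcl10 (chr5:92348890-92349139, minus strand), which holds both.
Il6: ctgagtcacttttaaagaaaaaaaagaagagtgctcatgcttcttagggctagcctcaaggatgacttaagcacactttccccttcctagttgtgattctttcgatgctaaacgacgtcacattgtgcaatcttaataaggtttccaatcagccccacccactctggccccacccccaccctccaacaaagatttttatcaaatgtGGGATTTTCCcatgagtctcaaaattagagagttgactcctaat
Cxcl3: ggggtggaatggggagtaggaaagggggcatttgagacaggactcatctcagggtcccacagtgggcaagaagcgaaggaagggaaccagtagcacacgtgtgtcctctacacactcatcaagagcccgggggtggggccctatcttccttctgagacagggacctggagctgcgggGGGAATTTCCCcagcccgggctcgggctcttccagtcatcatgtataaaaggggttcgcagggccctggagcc
Rsad2: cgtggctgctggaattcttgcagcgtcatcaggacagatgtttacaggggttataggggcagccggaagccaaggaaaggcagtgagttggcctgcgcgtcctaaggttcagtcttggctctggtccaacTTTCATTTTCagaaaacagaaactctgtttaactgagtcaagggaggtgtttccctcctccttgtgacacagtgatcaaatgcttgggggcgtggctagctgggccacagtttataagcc
Ifit1: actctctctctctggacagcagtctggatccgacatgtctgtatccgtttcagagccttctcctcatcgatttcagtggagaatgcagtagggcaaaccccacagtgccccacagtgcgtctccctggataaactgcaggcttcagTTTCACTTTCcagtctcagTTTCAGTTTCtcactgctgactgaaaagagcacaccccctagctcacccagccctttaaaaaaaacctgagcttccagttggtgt
Cxcl10: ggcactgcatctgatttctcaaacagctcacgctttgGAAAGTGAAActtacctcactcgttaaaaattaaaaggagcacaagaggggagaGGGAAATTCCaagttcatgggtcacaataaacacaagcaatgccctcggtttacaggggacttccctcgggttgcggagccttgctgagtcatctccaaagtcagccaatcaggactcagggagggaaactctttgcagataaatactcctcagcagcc

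Enzymes that make microbicidal and lipid mediators were among the largest single changes. Nos2, the inducible nitric oxide synthase, had 536, 1138, 1453 and 1262 CPM with LPS, against 0, 0, 0.128 and 0.142 CPM untreated. With 2 reads over the untreated group its ratio was 18306, with a counting interval of 5067 to 151164, and LPS replicate 1 had the lowest level of its group. Slc7a2, which encodes a transporter of its substrate arginine, was higher by 5.74 ± 0.10, and Gch1, the first enzyme in the synthesis of its cofactor tetrahydrobiopterin, by 3.57 ± 0.10. Spr, the last enzyme of that synthesis, was lower at -1.07 ± 0.12. Of the 18 genes of nitric oxide, arginine and polyamine metabolism 9 were higher and 4 lower, or 7 and 10 by total counts. Ptgs2, encoding the inducible cyclooxygenase COX-2, had 2226, 1272, 1218 and 1376 CPM with LPS, against 1.65, 1.66, 2.31 and 0.851 CPM untreated, a log2 fold change of 9.85 ± 0.21 (adjusted p by edgeR = 1.57e-08). Ptges, the synthase of prostaglandin E2, was higher by 6.83 ± 0.29. The constitutive cyclooxygenase Ptgs1 had 9.46, 9.27, 9.93 and 15.5 CPM with LPS, against 42.4, 28.0, 34.6 and 42.3 CPM untreated and Hpgd, which degrades prostaglandins, was lower at -2.20 ± 0.18. Over this group of 17 genes 7 were higher and 8 lower, or 3 and 11 by total counts. Sod2, the mitochondrial superoxide dismutase, rose by 3.94 ± 0.07, and Slc7a11, the cystine transporter, by 4.91 ± 0.09, in a group of 31 oxidase and antioxidant genes with 19 higher and 7 lower, or 11 and 17 by total counts.

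Genes of inflammasomes and cell death were mostly higher, 16 of 26 against 7 lower, or 13 and 11 by total counts. Nlrp3, the sensor whose inflammasome matures IL-1β, had 1723, 1301, 1374 and 1487 CPM with LPS, against 47.7, 21.9, 28.7 and 32.3 CPM untreated, a log2 fold change of 5.53 ± 0.12 (adjusted p by edgeR = 6.88e-11). Nod1 and Nod2, sensors of bacterial cell wall fragments, rose by 5.59 ± 0.11 and 5.21 ± 0.13, and Casp4, the caspase that binds LPS in the cytosol, by 3.95 ± 0.10. Nlrp1b, a sensor of anthrax lethal factor, was lower at -2.73 ± 0.17. In the BCL-2 family 9 of 18 were higher and 5 lower, or 6 and 10 by total counts. Bmf, which promotes cell death, had 1.20, 0.875, 0.514 and 0.814 CPM with LPS, against 79.4, 51.0, 61.9 and 69.8 CPM untreated. It was the decrease next to Cnr2 among genes with a mean of at least 10 CPM, and its log2 fold change was -6.23 ± 0.16 (adjusted p by edgeR = 1.02e-11). The survival genes Bcl2a1d and Bcl2a1a, near-identical copies whose reads may be shared, were higher by 7.66 ± 0.15 and 7.09 ± 0.22, and Bcl2a1a by 7.89 ± 0.23 without replicate 1.

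By TMM the metabolic groups had small median changes beside large changes of single genes, while by total counts most of their members were lower. Acod1, which makes the antimicrobial metabolite itaconate, had 10649, 9449.7, 11167 and 11083 CPM with LPS, against 85.1, 36.7, 32.0 and 33.3 CPM untreated. Untreated replicate 1 was the highest of its group, and the log2 fold change was 7.93 ± 0.43 (adjusted p by edgeR = 4.26e-04). Per length of exon it was among the 10 most abundant transcripts with LPS, at 4036 CPM per kb against 17.8 CPM per kb untreated. The other 29 genes of the tricarboxylic acid cycle group were closer to no change, and over all 30 the median was -0.02 with 7 higher and 10 lower, or 4 and 25 by total counts. Glul, glutamine synthetase, was lower at -1.95 ± 0.08, and Idh1, the cytosolic isocitrate dehydrogenase, at -1.21 ± 0.06. In glycolysis 13 of 27 were higher and 5 lower, or 7 and 16 by total counts and 8 and 3 without the replicate term. Slc2a6, a lysosomal hexose transporter, averaged 612 ± 111 CPM with LPS and 27.0 ± 9.91 CPM untreated, and Pfkfb3, which makes the activator of phosphofructokinase, was higher by 3.76 ± 0.08 while its relative Pfkfb4 was lower at -1.91 ± 0.11. Of 47 respiratory chain subunits 18 were higher and 8 lower with a median of 0.12, a balance that turned to 1 and 44 by total counts. Of 18 genes that handle iron, heme and NAD 8 were higher and 7 lower, or 7 and 10 by total counts. Slc39a14, a zinc and iron importer, was higher by 4.29 ± 0.15, and Steap3, a ferrireductase of the iron uptake pathway, was lower at -2.0 ± 0.11. Cholesterol genes were 14 higher and 10 lower of 29, or 5 and 16 by total counts, with Dhcr7, the last step of one synthesis branch, lower at -1.84 ± 0.22.

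Lysosomal genes were lower more often than higher, 22 of 43 against 6, with a median of -0.17, or 40 and 2 by total counts. For comparison, 36.5% of all genes tested were lower and 35.7% higher. Sgsh, an enzyme that degrades heparan sulfate, had 7.21, 14.3, 13.2 and 10.2 CPM with LPS, against 65.2, 55.9, 77.6 and 72.0 CPM untreated, a log2 fold change of -2.60 ± 0.17 (adjusted p by edgeR = 1.67e-06). Tfeb, the factor that activates lysosomal genes, was lower at -1.71 ± 0.09, and the cholesterol exporter gene Npc1 at -1.22 ± 0.06. The largest loss in CPM was that of Ctsd, the aspartic protease cathepsin D, which averaged 11828 ± 1646 CPM with LPS and 16508 ± 2254 CPM untreated, although its log2 fold change was only -0.48 ± 0.04. Psap and Gpnmb, other lysosomal transcripts at high level, had log2 fold changes of -0.17 ± 0.04 and -0.20 ± 0.05, and neither passed the test without the replicate term. Slc43a2, a transporter of large neutral amino acids, fell by 811 CPM, with 156, 172, 186 and 195 CPM with LPS, against 936, 874, 1056 and 1089 CPM untreated. The groups did not overlap and the log2 fold change was -2.48 ± 0.07 (adjusted p by edgeR = 2.01e-11).

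Ribosomal and proteasomal genes showed small changes whose direction rests on the scaling. Of 40 cytosolic ribosomal proteins 34 were higher and 0 lower with a median of 0.24, but 1 was higher and 39 lower by total counts, and 17 were higher without the replicate term. None was beyond 2-fold either way. Proteasome subunits were 25 higher and 3 lower of 31 with a median of 0.33, or 8 and 19 by total counts, led by Psma6 at 1.69 ± 0.07. Of 28 actin and cell shape genes 22 were higher and 2 lower, or 14 and 11 by total counts. Fscn1, which bundles actin in filopodia and dendritic cells, had 102, 92.9, 112 and 120.3 CPM with LPS, against 0.720, 0.935, 0.769 and 0.284 CPM untreated, a log2 fold change of 7.20 ± 0.16 (adjusted p by edgeR = 5.12e-12). Marcksl1, a regulator of membrane-bound actin, averaged 1467 ± 220.2 CPM with LPS and 40.7 ± 12.05 CPM untreated, and Actb, the cytoplasmic actin, gained 6867 CPM at a log2 fold change of 1.30 ± 0.06. Coro1a, an actin regulator of phagosomes, was lower at -1.13 ± 0.12.

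**Figure D5:**
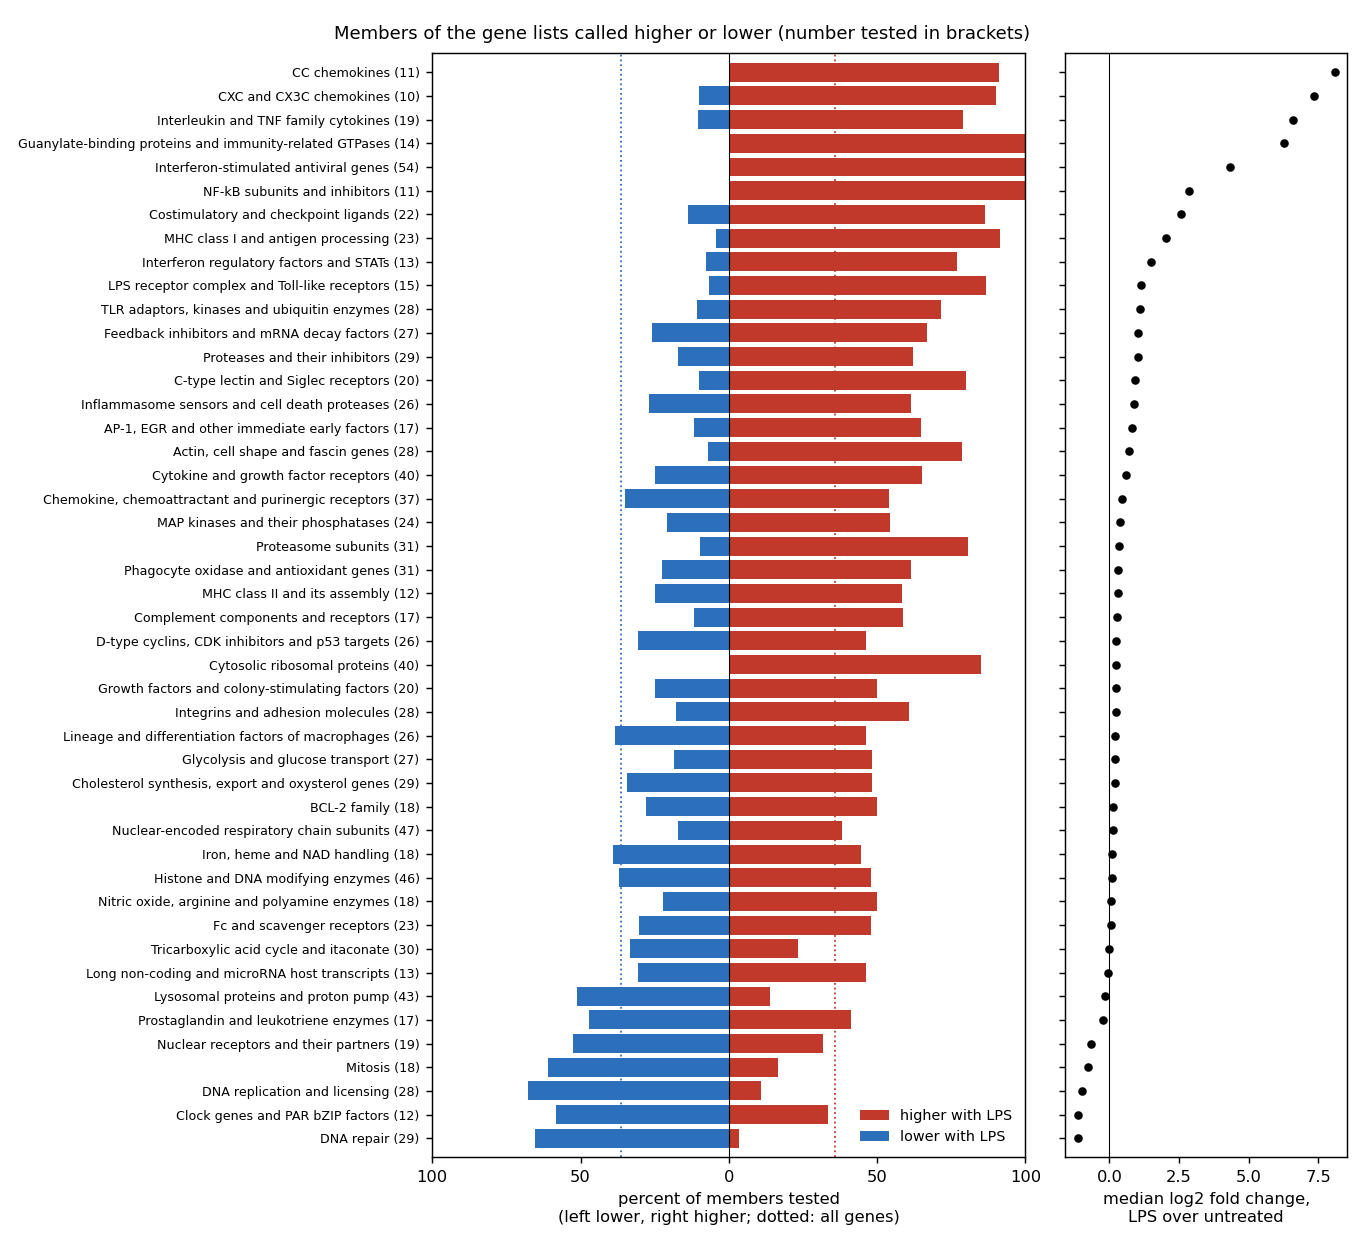
For each gene group, the left panel gives the percent of tested members called higher (red, to the right) or lower (blue, to the left) with LPS, with dotted lines at 35.7% and 36.5% for all genes tested, and the right panel the median log2 fold change. Groups run by median, with CC chemokines at 8.09 at the top and DNA repair at -1.13 at the foot.

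Cell cycle and DNA repair genes were mostly lower with LPS. Of 28 replication and licensing genes 19 were lower and 3 higher, of 18 mitotic genes 11 were lower and 3 higher, and of 29 DNA repair genes 19 were lower and 1 higher. Their median log2 fold changes were -0.97, -0.76 and -1.13. For comparison, 36.5% of all genes tested were lower and 35.7% higher. E2f2, an activator of the S phase programme, had 1.05, 1.92, 0.514 and 0.611 CPM with LPS, against 35.9, 39.9, 35.8 and 29.9 CPM untreated. It fell more than any other member of these groups, by a log2 fold change of -5.08 ± 0.20 (adjusted p by edgeR = 4.29e-10). The DNA damage kinase gene Chek2 had 0.1501, 2.099, 0.685 and 1.22 CPM with LPS, against 14.5, 16.1, 16.02 and 14.6 CPM untreated, a log2 fold change of -3.92 ± 0.31 (adjusted p by edgeR = 1.45e-06), or -4.53 ± 0.34 without replicate 2. Brca1, Brca2 and Xpc, of recombination and nucleotide excision repair, were lower at -2.99 ± 0.25, -3.49 ± 0.60 and -2.64 ± 0.13. The member of the repair group that rose was Atm, the kinase that senses double-strand breaks, at 1.07 ± 0.10. Aurkb, a kinase of chromosome segregation, was lower at -2.89 ± 0.39. Mki67, the usual marker of cycling cells, went against its group, with 182, 78.2, 66.8 and 87.5 CPM with LPS, against 30.0, 35.7, 29.1 and 25.1 CPM untreated. LPS replicate 1 was the highest and the log2 fold change was 1.70 ± 0.32 (adjusted p by edgeR = 0.0119), a call lost without replicate 4. Of 26 D-type cyclins, CDK inhibitors and p53 targets 12 were higher and 8 lower, but 8 and 12 by total counts. Ccnd2, a D-type cyclin, averaged 219 ± 30.2 CPM with LPS and 1.88 ± 1.46 CPM untreated, and Cdkn1a, the inhibitor p21, was higher by 3.78 ± 0.07. Sesn1, a p53 and FOXO target that restrains mTORC1, had 1.80, 2.099, 3.59 and 2.85 CPM with LPS, against 99.2, 83.4, 126 and 121 CPM untreated, a log2 fold change of -5.38 ± 0.12 (adjusted p by edgeR = 4.26e-12).

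Chromatin modifiers, non-coding transcripts and clock genes gave further single changes. Of 46 histone and DNA modifying enzymes 22 were higher and 17 lower, beside 35.7% and 36.5% of all genes tested. By total counts these numbers were 12 and 28. Setdb2, already named in its cluster, had 175, 149.9, 199.8 and 188 CPM with LPS, against 7.404, 6.65, 6.54 and 6.10 CPM untreated. Hdac5, a histone deacetylase, was lower at -2.62 ± 0.11, and Dnmt1, the maintenance DNA methyltransferase, at -2.12 ± 0.12. Kdm6b, an H3K27 demethylase, was higher by 2.37 ± 0.12. Among 13 non-coding transcripts tested of 23 listed, 6 were higher and 4 lower, or 4 and 7 by total counts. Mir155hg, the host of miR-155 on chromosome 16, had 31.1, 14.3, 22.9 and 21.6 CPM with LPS and 3 reads over the untreated group, a 260.7-fold ratio (counting interval 88.7 to 1268). The counts are of the host transcript and not of the mature miRNA, whose main arm, chr16:84714143-84714165 on the plus strand in RefSeq (GRCm38.p6), is shown with its seed, bases 2 to 8, in capitals because the seed sets which mRNAs it pairs with.
mmu-miR-155-5p: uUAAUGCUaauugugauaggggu
Of 12 clock genes and PAR leucine zipper factors 7 were lower and 4 higher, or 8 and 1 by total counts. Tef and Dbp, activators of clock output, were lower at -2.72 ± 0.09 and -2.73 ± 0.25, and Per1, a clock repressor, at -2.18 ± 0.29. Nfil3, which represses the genes that Tef and Dbp activate, was higher by 1.61 ± 0.12.

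Several of the strongest single changes fell outside these groups. Lipg, encoding endothelial lipase, had 97.7, 205, 408 and 250.3 CPM with LPS, against 0.206, 0, 0 and 0 CPM untreated, a 4019-fold ratio (counting interval 1112 to 33198). Shisa3, which encodes an endoplasmic reticulum protein that restrains WNT and FGF receptors, had 177, 79.9, 41.9 and 67.4 CPM with LPS, against 0, 0, 0.128 and 0 CPM untreated and a 3272-fold ratio (counting interval 587 to 129294). LPS replicate 1 was the highest of its group in Shisa3 and the lowest in Lipg. Among decreases, Zfp395, Fam214a, Arhgap19, Abcd2, Rassf3, Tbc1d2 and 6430548M08Rik had log2 fold changes of -5.86, -5.77, -5.72, -5.41, -5.0, -4.76 and -4.84. Abcd2, a peroxisomal transporter of very long chain fatty acids, had 0.751, 0.875, 1.54 and 1.22 CPM with LPS, against 38.9, 37.8, 55.2 and 57.6 CPM untreated. Rassf3, of the RAS association domain family, had 4.35, 6.82, 6.50 and 5.29 CPM with LPS, against 163, 178, 199 and 197 CPM untreated, the highest untreated level among these 7 genes. In all 7 the groups did not overlap.

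Calls differed with the level of a gene. Among genes with a mean of at least 50 CPM 58.5% were higher and 23.1% lower, and among those under 5 CPM 15.6% were higher and 45.8% lower. The mean was taken over all 8 libraries, so an increase with LPS itself moves a gene to a higher level. These shares therefore do not test a link between level and response. Exon number differed little, as the median was 7 exons in genes beyond 2-fold higher, 8 in those beyond 2-fold lower and 8 in all genes tested, and single-exon genes made up 6.84%, 4.70% and 6.36%. Per length of exon, 59 genes were among the 100 most abundant in both groups. Of the 100 most abundant with LPS, 45 were beyond 2-fold higher, against 13.3% of all genes tested. Of the 100 most abundant untreated, 2 were beyond 2-fold lower, against 9.5% of all genes tested. Ranking by the level in a group favours genes that are higher in that group, so these counts do not test the response. Rsad2 stood at 3055 CPM per kb with LPS and 6.67 untreated, and Cxcl10 at 2681 and 1.91. Lyz2, the macrophage lysozyme, stood first in both, at 10421 and 9424 CPM per kb.

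The LPS effect with serine was set against the LPS effect without serine in a fit of all 16 libraries with a term for the replicate number. A library of the medium without serine had a low depth, and it entered this fit but not the test of the 8 libraries. No gene of 11004 tested had an effect that differed between the media at an edgeR adjusted p under 0.05 (0% called), and 465 genes, 4.23%, did so at an unadjusted p under 0.05. The difference lay between -0.51 and 0.65 (log2) for the middle 90% of genes. The gene with the smallest p was Cxcr4, whose log2 fold change was -3.85 ± 0.12 with serine and -2.78 ± 0.11 without it, a difference of -1.07 ± 0.15 (edgeR adjusted p = 0.0809).

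In the authors' deposited table of the same comparison, 3227 genes are marked higher with LPS and 3182 lower. The highest adjusted p of a marked gene in the authors' deposited table is 0.00999, whereas calls here go up to 0.05. Of the genes called higher here, 3079 are marked higher in the authors' deposited table, 95.4% of theirs and 81.5% of those called here. For lower genes the overlap is 3000, 94.3% and 77.5%, and 0 genes go in opposite directions in the authors' deposited table and here.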

How the data were processed

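RNA was isolated from mouse bone marrow-derived macrophages and libraries were made with an unstranded NEBNext Ultra kit and sequenced on a NextSeq instrument, per the labels' protocols. The submitters' processing notes list the mm10 build and the tools STAR, HTSeq, Trimmomatic 0.33, edgeR and SAMtools. The deposited table holds raw counts per gene, made by the authors. The authors' deposited comparison table holds log2 fold changes and p-values, of which only direction and significance marks were used. Another 24 columns of per-sample values were not used. The authors' counting may split reads between near-identical genes, and without strand, reads of overlapping antisense genes cannot be told apart.

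Libraries were grouped by their labels. Counts of 8 libraries were tested with edgeR 4.0.16 in R 4.3.3 (quasi-likelihood, robust, TMM, filterByExpr) with replicate number as a block, Benjamini-Hochberg over 10593 genes, at an adjusted p of 0.05, and glmTreat for changes beyond 2-fold. After group means were subtracted, LPS and untreated libraries with one number correlated at 0.211 to 0.358, and those with different numbers at -0.260 to 0.0961, so the numbers were taken to pair the libraries. No libraries were copies of each other, as chi-square over its degrees of freedom was at least 2.13 in all 28 pairs. Counting intervals are exact 95% intervals and, like floors of 3 counts, cover counting error only. DESeq2 1.42.0 was an alternative.

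The comparison and its 46 gene lists were chosen with earlier results of these data known. Genes were named by rule: the 12 largest changes each way, the 6 largest gains and losses in CPM, up to 3 called members each way per list, the 5 widest ranges over pairs, genes of the 4 longest runs each way, the LPS receptor genes and Il1b, Il1a, Tnf, Il6, Il12b and Nos2. Outside it, Casp4, Ccl3, Cebpb, Cebpg, Cxcl1, Ifitm2, Il1rn, Il27, Irf3, Lyz2, Xpc and Zfp36 were chosen after their values were seen. Cebpg and Zfp36 are not among the 183 named genes followed under other processing. Gbp5, Gbp6, Gbp10 and AI607873 were not analysed here. A few other genes that the rule names are not reported here.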

Additional observations from a re-analysis of the deposited data

Results flagged for a closer look

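Of 383 groups of 4 libraries checked with Dixon's test, 30 held a library that stood apart from the other 3, or 7.83%, where chance flags about 1 in 20 groups. The genes checked include some chosen for a wide range over pairs and are not independent. The share therefore cannot be tested against that rate. Untreated replicate 1 was that library 14 times and LPS replicate 1 was it 9 times.

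In untreated replicate 1, interferon-related genes stood above the other untreated libraries, with Iigp1 at 6.68 CPM, Ifit1bl1 at 10.1 CPM, Ifi205 at 9.15 CPM and Usp18 at 19.8 CPM. Inflammatory genes did so as well, with Tnf at 17.6 CPM, C3 at 306 CPM, Acod1 at 85.1 CPM and Ptges at 9.67 CPM. Genes that LPS lowered were also highest there, with Fos at 304 CPM, Hdac5 at 150.5 CPM, Ppard at 54.2 CPM and Gpr183 at 33.3 CPM. The share of counts in genes beyond 2-fold higher was 11.3%. Ctsd stood below the rest, at 13169 CPM.

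In LPS replicate 1, Ptgs2 at 2226 CPM, Icam1 at 3723 CPM, Traf1 at 719.8 CPM, Nod2 at 171 CPM, Kdm6b at 98.02 CPM and Ciita at 19.97 CPM stood above the other LPS libraries. Ctsd at 9362 CPM and Zfp36l2 at 55.2 CPM stood below them. The erythroid marker sum was 0.1501 CPM there and 0 in the others.

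Other libraries stood apart less often. They were LPS replicate 4 for Cebpd at 281.7 CPM and Ptgs1 at 15.5 CPM, both high, LPS replicate 3 for Hgf at 21.4 CPM, high, and untreated replicate 2 for Vsir at 211 CPM and Fpr1 at 0.831 CPM, both low. The share of counts in genes beyond 2-fold lower was highest in LPS replicate 2, at 1.402%, and lowest of its group in untreated replicate 2, at 6.84%.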

How the results depend on the processing

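The counts of genes higher and lower with LPS stayed within 1.5 times of 3777 and 3871, and those beyond 2-fold within 1.5 times of 1408 and 1006, under DESeq2 size factors, without the filter on low counts, without the replicate block, and in the fits of all 16 libraries, and the DESeq2 test kept 3 of these 4 counts there. Scaling to total counts gave 1915 genes higher and 7267 lower, 919 beyond 2-fold higher and 2515 lower, and 573 lower members of the gene lists instead of 278. The DESeq2 test gave 616 genes beyond 2-fold lower. Without the replicate block 3504 genes were higher and 3633 lower, 1371 and 976 beyond 2-fold; it lowered the count of called members by over 1.5 times in the groups where this is stated above and, for lower members, in 6 lists with at most 5 of them. Leaving out each replicate gave 3485 to 3683 genes higher, 3483 to 3982 lower, 1302 to 1439 beyond 2-fold higher and 902 to 998 beyond 2-fold lower. The difference between media gave 0 genes without the block, by total counts and in 3 of the leave-one-out fits, and 0 to 1 over all 4, with 1 gene without replicate 4. Runs of neighbouring genes numbered 76 to 87 higher and 29 to 30 lower with a replicate left out, an alternative chosen after seeing the data. Over 183 named genes and 11 alternatives, 1994 of 2013 values kept their direction and side of the threshold, 16 values of 7 genes lost it, and 1 reversed, that of Lyz2 by total counts at -0.47. Irf3 and Tlr4 passed as lower by total counts, at -0.74 and -0.51. The causes were not tested. Genes near 0 counts are limited by depth, as at 5760734 to 8092528 counts 1 read is 0.103 to 0.204 CPM.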
